A study of Mus musculus with 2 samples.

Results

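Cells with transcripts of complement C1q were examined in the bone marrow of aged C57BL/6J recipients of a gut microbiota transplant. A cell counted as C1q-positive when it held at least 3 UMIs (unique molecular identifiers, each standing for 1 captured transcript) of C1qa, C1qb and C1qc together, from at least 2 of these genes. A barcode was called a cell at 1000 or more UMIs and 500 or more detected genes, provided that mitochondrial genes gave no more than 10% of its UMIs. The rule found 223 C1q-positive cells among 23283 called cells of the series. Of these, 174 were in the library of aged mice given microbiota from young donors (FMT_young), which had 11932 called cells. The other 49 were in the library of aged mice given microbiota from aged donors (FMT_aged), which had 11351 called cells. All recipients in both groups were aged, and neither the donors' nor the recipients' ages in months nor the number of animals per library are stated in the labels. Each library was a mixture sorted by flow cytometry, with 1 part of whole marrow, 1 part of Lin- cells and 4 parts of Lin- cells positive for Kit, so the shares below are shares of a mixture enriched for progenitors and not of marrow.

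C1q is the recognition molecule of the classical complement pathway. It is assembled from A, B and C chains, binds antibody complexes and dying cells, and is made in most tissues by macrophages and some dendritic cells rather than by the liver. Marrow macrophages are known for taking up the nuclei expelled by erythroblasts, for breaking down haem from old red cells and returning its iron, and for holding haematopoietic cells in place through VCAM-1. Haem oxygenase (Hmox1), ferroportin (Slc40a1), the transcription factor SpiC and VCAM-1 are the usual marks of that work.

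Each group was a single library without a replicate. No test between the groups was made, and the ratios below, given as log2 of FMT_young over FMT_aged, compare these 2 libraries. Their 95% intervals cover counting error only, and PCR copies were already collapsed by the UMIs. FMT_young held 214982156 UMIs and FMT_aged 207642851, with medians of 12438.5 and 13000 UMIs per called cell. The libraries shared 34 barcodes among called cells and 0 among C1q-positive cells. Free RNA, read from barcodes with fewer than 100 UMIs, was estimated at 2.73% and 2.82% of the UMIs of a T or NK cell. Levels are given as CPM, the UMIs of a gene scaled to 1000000 UMIs over all cells of a class. Free RNA held 34.0 CPM of the C1q genes together in FMT_young and 11.2 CPM in FMT_aged.

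The C1q genes chose the cells, so their levels are a description. They lie beside each other on the minus strand of chromosome 4 (GRCm38, GENCODE vM21), C1qb at 136880129 to 136886187, C1qc at 136889804 to 136893065 and C1qa at 136895917 to 136898803. In FMT_young, C1qb made up 44.6%, C1qa 30.2% and C1qc 25.1% of the C1q UMIs of all C1q-positive cells. In FMT_aged these shares were 41.8%, 34.5% and 23.6%. The proportions of the chains' transcripts were thus close in the libraries, although the number of cells was not. A C1q-positive cell held a median of 18.5 C1q UMIs in FMT_young (range 3 to 166) and of 15 in FMT_aged (range 3 to 213). All C1q genes were detected in 153 of 174 and 38 of 49 cells, and 128 and 34 cells held at least 10 C1q UMIs. Just inside the rule lay 9 FMT_young and 5 FMT_aged cells with exactly 3 C1q UMIs, and just outside it 15 and 7 cells with 2 UMIs from 2 genes. A further 6 and 1 cells had 3 or more UMIs of only 1 C1q gene.

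**Figure D1:**
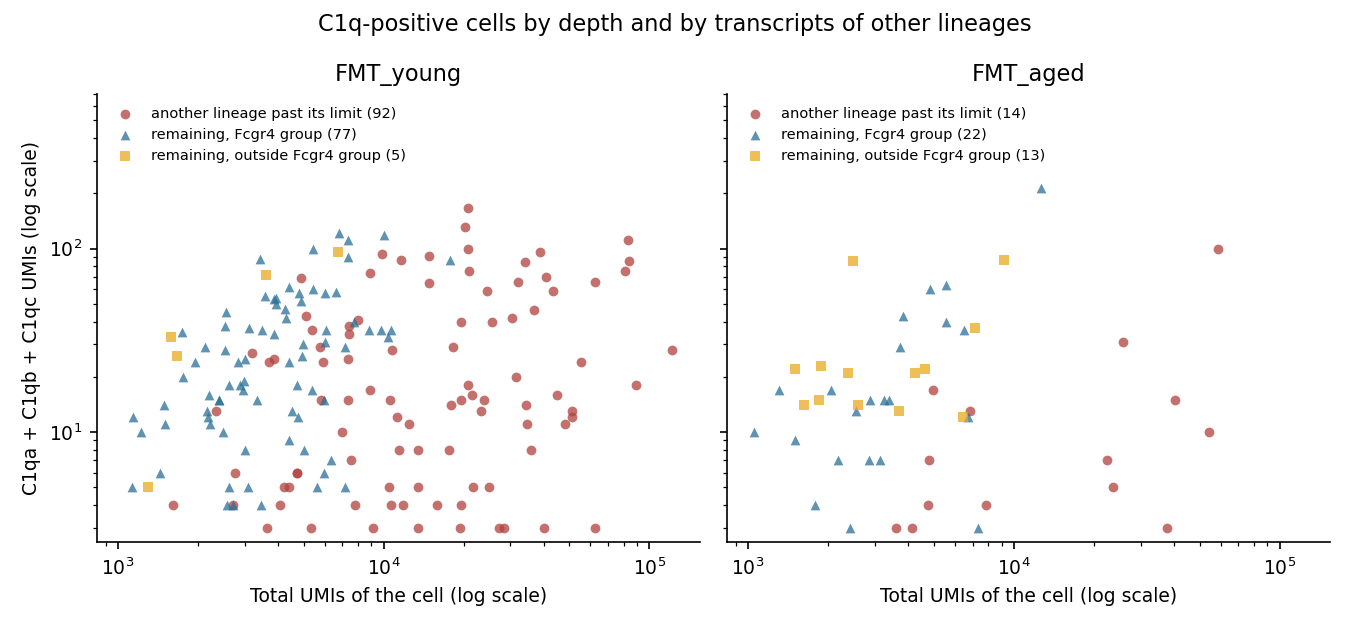
Each point is 1 C1q-positive cell of FMT_young (left) or FMT_aged (right), by its total UMIs (x axis, log scale) and its UMIs of C1qa, C1qb and C1qc together (y axis, log scale). Circles are cells in which markers of another lineage passed a limit (92 and 14 cells), triangles are the remaining cells with at least 4 of 10 Fcgr4-group genes (77 and 22) and squares the remaining cells outside that group (5 and 13). The circles reach the highest totals.

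Many C1q-positive barcodes also carried the transcripts of another blood lineage. Lists of markers were set for 8 other lineages, each with a limit on its share of a cell's UMIs that was chosen after the values were seen. At least 1 list was past its limit in 92 of 174 cells in FMT_young (52.9%, 95% Clopper-Pearson interval 45.2 to 60.5) and in 14 of 49 in FMT_aged (28.6%, 16.6 to 43.3). Of these cells, 28 and 2 were past the limits of 2 lists and 4 and 0 past those of 3. They had medians of 15352.5 and 15155.5 UMIs, against 3743 and 3147 UMIs in the C1q-positive cells without another lineage. A doublet score called 48 of the 92 (52.2%) and 5 of the 14 (35.7%), against 5 of 82 and 6 of 35 of those without another lineage and 9.55% and 9.08% of all called cells. The part of doublets in the values over all C1q-positive cells was not tested. The lists of genes below are therefore given over all C1q-positive cells and over the 82 and 35 without another lineage, called the remaining cells, while most named genes are given for the remaining cells. That subset was added after the data had been seen.

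The neutrophil and granulocyte progenitor list was past its limit in 54 C1q-positive cells of FMT_young, more than any other list there, and in 5 of FMT_aged. Set against all called cells past the same limit, 0.782% of 6903 cells in FMT_young were C1q-positive (95% interval 0.588 to 1.02) and 0.0850% of 5880 in FMT_aged (0.0276 to 0.198). Cells past the B and plasma cell limit were C1q-positive in 37 of 2642 cases (1.40%) and 6 of 1219 (0.492%). For T and NK cells these counts were 14 of 1177 (1.19%) and 1 of 1582 (0.0632%), and for stem and progenitor cells 16 of 2245 (0.713%) and 2 of 2571 (0.0778%). In these 4 lineages alike the C1q-positive share was larger in FMT_young. Few or no C1q-positive cells were past the limits of conventional dendritic cells (0 of 174 and 2 of 285), plasmacytoid dendritic cells (1 of 184 and 0 of 151) or basophils, mast cells and eosinophils (0 of 261 and 0 of 433, with upper bounds of 1.40% and 0.848%). Megakaryocyte, osteoclast and stromal markers had no limit set, and Cxcl12, Lepr and Col1a1, which mark marrow stroma, were at 0 UMIs in all C1q-positive cells.

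**Figure D2:**
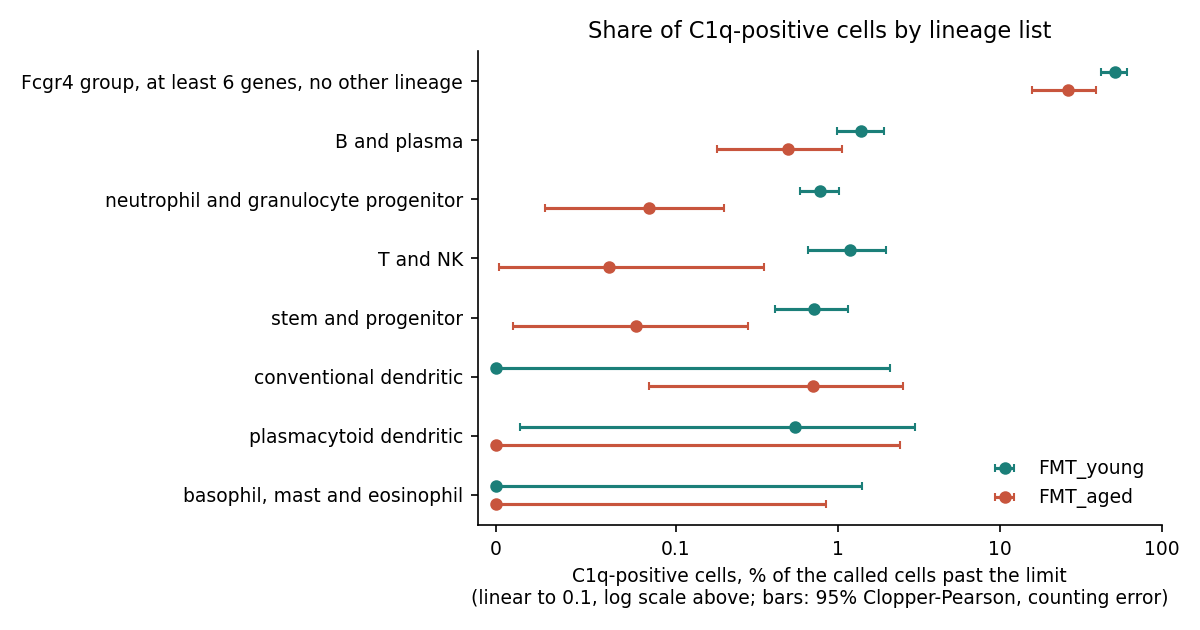
Points give the percentage of called cells past each lineage's marker limit that were C1q-positive, in FMT_young (green) and FMT_aged (orange), on an axis that is linear to 0.1 and logarithmic above, and bars are 95% Clopper-Pearson intervals for counting error. Among the classes plotted, cells with at least 6 Fcgr4-group genes and no other lineage stand highest, at 51.8% and 26.2%. The Fcgr4 group was chosen after the leading genes had been seen, so its place is a description. The erythroid list, passed by only 8 and 1 cells with 6 and 0 C1q-positive, is not plotted. No lymphoid, granulocytic or progenitor list exceeds 1.40%.

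The barcodes with another lineage were compared with C1q-negative cells past the same limit. In FMT_young, C1q-positive cells past the neutrophil and granulocyte limit had medians of 22380.5 UMIs, and C1q-negative ones 19786.5. Fcgr4, an activating receptor for IgG, stood at 369 CPM in the 54 C1q-positive and 7.5 CPM in the 6728 C1q-negative cells (log2 ratio 5.62, 95% interval 5.47 to 5.77). Ms4a7, a membrane protein known from macrophages, had a log2 ratio of 7.84, SpiC's gene Spic 7.96 and the receptor tyrosine kinase gene Axl 5.62. Vcam1 differed less, at 161 and 95.8 CPM (log2 0.75, 0.56 to 0.93), and Slc40a1 stood at 21.7 and 25.1 CPM (log2 -0.21, -0.75 to 0.28). In FMT_young cells past the B and plasma cell limit, Fcgr4 was at 283 CPM in 37 C1q-positive and 4.32 CPM in 2527 C1q-negative cells (log2 6.03), Vcam1 at 118 and 74.0 CPM (0.67) and Slc40a1 at 14.6 and 15.3 CPM (-0.06). The FMT_aged counterparts are only 5 and 6 cells, with Fcgr4 at 93.9 against 6.91 CPM (log2 3.77) and 5.43 against 3.98 CPM (0.45, -4.87 to 2.97). Slc40a1 in the latter 6 was at 70.6 against 10.7 CPM (2.72, 1.79 to 3.52).

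The name of a marrow macrophage was checked against Vcam1 and Hmox1, the markers set beside the C1q genes. Hmox1 was detected in 75 of 174 (43.1%) and 18 of 49 (36.7%) C1q-positive cells. Among the remaining cells its shares were 46.3% and 40%. Thinned to 1000 UMIs per cell these became 21.8% and 21.5%, against 0.181% and 0.364% in T and NK cells without C1q, whose median depths of 3476 and 3265 UMIs were near those of the remaining cells. Hmox1 transcripts were thus well above the level that free RNA left in T and NK cells. They were not particular to C1q-positive cells, however. Monocytes without C1q had thinned shares of 2.63% and 1.88%. C1q-negative cells with at least 6 genes of the Fcgr4 group, defined below, had Hmox1 in 30.4% and 21.4% (thinned 11.3% and 9.51%). Remaining C1q-positive cells with as many of these genes had it in 48.3% and 37.5% (thinned 21.8% and 15.5%).

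Vcam1 was found in fewer cells. It was detected in 44 (25.3%) and 9 (18.4%) of all C1q-positive cells, but in only 9 of the 82 (11%, thinned 4.94%) and 5 of the 35 (14.3%, thinned 13.6%) remaining cells. T and NK cells without C1q had Vcam1 in 1.36% and 0.460% (thinned 0.411% and 0.129%), and monocytes without C1q in 12.9% and 9.71% (thinned 2.70% and 1.45%, at medians of 12325 and 14875 UMIs). Neither Vcam1 nor Hmox1 was detected in 80 (46.0%) and 29 (59.2%) C1q-positive cells. Of other genes known from macrophages, some were scarce and some were not. Axl was detected in 33 of the 82 and 18 of the 35 remaining cells, Ms4a7 in 44 and 19 and Mrc1 in 11 and 9. Among the scarce ones, Timd4, a receptor for dying cells, had 0 UMIs in both libraries, and the haemoglobin receptor gene Cd163 had 4 and 0. The sialic acid receptor gene Siglec1 had 3 and 0 UMIs, and the kinase gene Mertk 14 and 3.

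General macrophage genes were present. Adgre1, the gene of F4/80, was detected in 52 of 82 (63.4%, thinned 28.3%) and 22 of 35 (62.9%, thinned 31.3%) remaining cells. T and NK cells without C1q had it in 0.389% and 0.131%. In C1q-negative cells with at least 6 Fcgr4-group genes its shares were 47.8% and 38.1% (thinned 21.2% and 20.02%). Csf1r, the receptor for macrophage colony-stimulating factor, was detected in 41 (50%, thinned 19.9%) and 20 (57.1%, thinned 26.5%) remaining cells. Spic was detected in 18 (22%, thinned 9.17%) and 9 (25.7%, thinned 11.8%) remaining cells, against 0 of 1027 and 0 of 1523 T and NK cells without C1q, with upper bounds of 0.359% and 0.242%. Slc40a1, the iron exporter, was found in only 3 of 82 (3.66%, thinned 0.936%) and 5 of 35 (14.3%, thinned 12.2%), against 0.292% and 0.197% in T and NK cells without C1q. Because Vcam1 and Slc40a1 were missing from most of these cells, they are called C1q-positive cells here, with no cell type name.

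Most C1q-positive cells carried a further set of genes. This set, named here the Fcgr4 group and chosen after the leading genes had been seen, comprises Fcgr4, Ace, Treml4, Cd300e, Ear2, Pou2f2, Gngt2, Clec4a3, Adgre4 and Spn, genes known from nonclassical monocytes and from some tissue macrophages. At least 4 of the 10 were detected in 148 of 174 (85.1%) and 30 of 49 (61.2%) C1q-positive cells. Over all called cells this held for 568 of 11932 in FMT_young and 338 of 11351 in FMT_aged. As the set was chosen with these data seen, its share among C1q-positive cells is a description and no test. Among the remaining cells 77 of 82 and 22 of 35 were in the group. Read from the other side, of all called cells with at least 6 of these genes and no other lineage, 58 of 112 (51.8%, 42.1 to 61.3) were C1q-positive in FMT_young and 16 of 61 (26.2%, 15.8 to 39.1) in FMT_aged, with medians of 3943 and 2711 UMIs over those cells.

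The remaining cells were set against cells defined by monocyte genes without Kit and C1q, called monocytes here (1230 and 1071 cells). This class also held granule gene transcripts, with Elane at 4293 and 4360 CPM and Mpo at 4154 and 5013 CPM. The part of granulocyte progenitors in it was not tested. Among genes with at least 100 CPM in both libraries, and apart from the C1q genes, the leading ones by the smaller of the libraries' ratios were Ms4a7 (log2 9.24 in FMT_young and 9.81 in FMT_aged), Fcrl5 (12.69 and 9.09), Spic (8.98 and 9.59) and Cd300e (8.96 and 9.55). Fcrl5 belongs to the Fc receptor-like family and Cd300e encodes an activating surface receptor. Then followed Asb2, which targets proteins for degradation, the adhesion molecule gene Cadm1, and Nr1h3, the oxysterol receptor LXR-alpha (log2 7.94 and 8.04). The fatty acid binding protein gene Fabp4 was at 8.39 and 7.69 and Fcgr4 at 8.49 and 7.30. Since monocytes were required to lack C1q and these cells to have it, the ratios describe the selected cells and carry no test.

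Some genes stood far lower in the remaining cells than in monocytes. Ly6c2, a surface marker of classical monocytes, stood at 97.8 and 43.9 CPM in the remaining cells against 2717 and 2410 CPM in monocytes (log2 -4.80 and -5.78). The granule protease genes Ctsg (-4.99 and -5.08), Prtn3 (-4.97 and -5.61) and Elane (-4.52 and -4.70) were lower as well. The limit on neutrophil transcripts, which includes Ctsg, Prtn3 and Elane, was applied to the remaining cells and not to the monocytes.

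A closer comparison used cells with at least 6 Fcgr4-group genes and no other lineage on both sides, 58 and 16 with C1q and 46 and 42 without any C1q UMI. The C1q-positive cells were higher in both libraries in Cd72, a B cell and myeloid inhibitory receptor (441 against 11 CPM, log2 5.32, in FMT_young, and 550 against 12.9 CPM, 5.41, in FMT_aged). Maf, a transcription factor of macrophages, stood at 226 against 7.36 CPM (4.94) and 458 against 6.46 CPM (6.15). Axl, which recognises dying cells through bridging proteins, stood at 201 against 14.7 CPM (3.77) and 260 against 6.46 CPM (5.33). The chemokine gene Ccl4 stood at 1184 against 92.0 CPM (3.69) and 1771 against 51.7 CPM (5.10). Ms4a7 had 79 UMIs in the 58 cells and 0 in the 46 of FMT_young, and 34 and 1 in FMT_aged. Fcgr4 itself, although part of the selection on both sides, was at 2722 against 460 CPM and at 1771 against 620 CPM.

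Other genes were higher in the C1q-negative cells of the same comparison. Lyz2, the gene of lysozyme, stood at 7509 CPM in them and at 812 CPM in the C1q-positive cells of FMT_young (log2 -3.21, -3.41 to -3.01), and at 10814 and 901 CPM in FMT_aged (-3.59). Plac8 was at 2057 and 135 CPM (-3.92) and at 2513 and 122 CPM (-4.36). The peptidoglycan recognition protein gene Pglyrp1 was at 585 and 17.4 CPM (-5.07) and at 775 and 15.3 CPM (-5.67), and Ly6c2 at 762 and 90.3 CPM (-3.08) and at 426 and 45.8 CPM (-3.22). Genes with 0 UMIs in the FMT_aged C1q-positive cells included the scavenger receptor gene Cd36 and the chemokine receptor gene Cxcr4, against 46 and 29 UMIs in the C1q-negative cells.

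**Figure D3:**
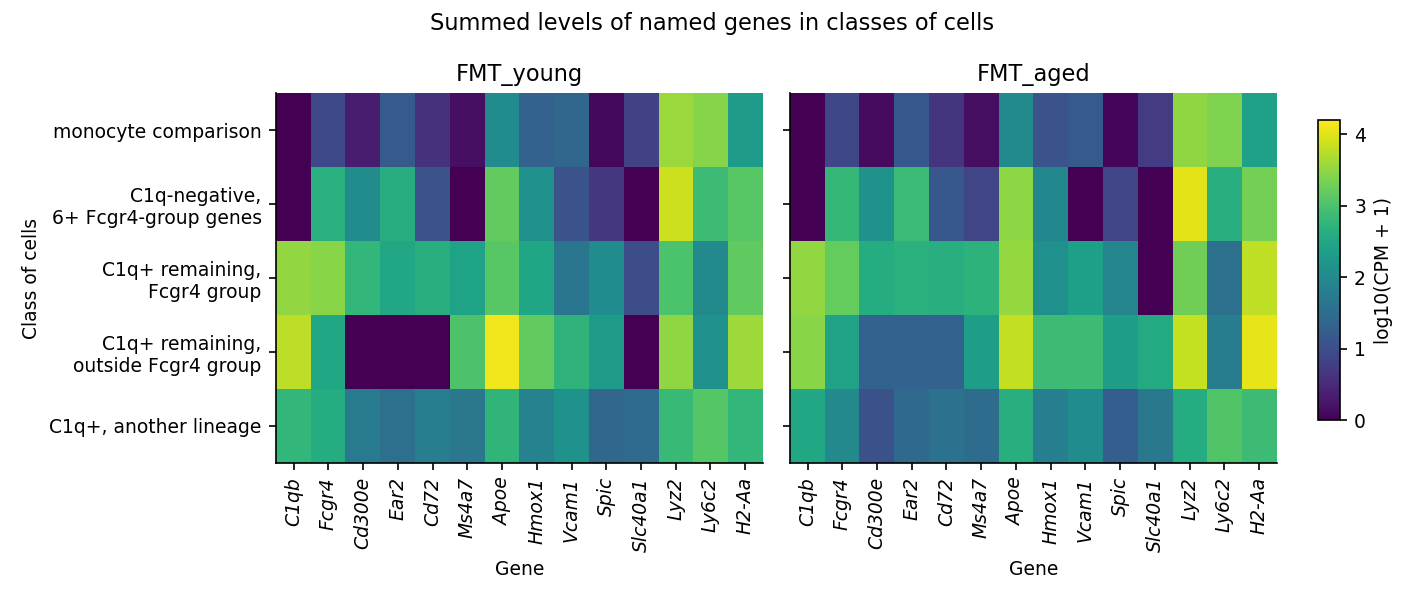
Colour gives log10 of CPM plus 1 for 14 genes (columns) summed over the cells of each class (rows), in FMT_young (left) and FMT_aged (right). Cells outside the Fcgr4 group lack Cd300e, Ear2 and Cd72 in FMT_young and are nearly without them in FMT_aged. Cd300e and Ear2 help to define the group, so their low levels outside it follow from the definition. Cd72 was not used in the definition, but it was among the genes ranked lowest outside the group in these data, so its level is a description. C1q-negative cells with 6 or more Fcgr4-group genes are the highest in Lyz2, at 7509 and 10814 CPM.

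The remaining cells outside the Fcgr4 group, 5 in FMT_young and 13 in FMT_aged, had a different make-up, and their small number limits every value. The doublet score called 2 of the 5 and 3 of the 13, against 3 of the 77 and 3 of the 22 inside the group. The part of doublets in the values was not tested. Hmox1 stood at 1539 CPM outside the group and 292 CPM inside it in FMT_young (log2 2.40, 1.68 to 3.06), and at 744 and 126 CPM in FMT_aged (2.56, 1.56 to 3.68). Outside the group, 1 cell held 14 of the 23 Hmox1 UMIs in FMT_young and 1 cell 13 of the 37 in FMT_aged. The transferrin gene Trf was higher by log2 4.06 and 2.10, the tetraspanin gene Cd63 by 3.01 and 2.13 and the lysosomal nuclease gene Pld3 by 4.18 and 2.17. The scavenger receptor gene Stab1 had ratios of 7.33 and 3.13 from few UMIs, 7 against 1 in FMT_young and 5 against 1 in FMT_aged. Its FMT_aged interval, -0.03 to 8.70, held 0. The chemokine gene Ccl8 had 6 UMIs in 5 cells against 7 UMIs in 77, and 12 UMIs in 13 cells against 0 in 22. Slc40a1 was detected in 5 of the 13 FMT_aged cells outside the group and in 0 of the 22 inside it, but in 0 of the 5 and 3 of the 77 in FMT_young. In the FMT_aged library, Vcam1 was found in 4 of the 13 cells outside the group and in 1 of the 22 inside it, and that cell held all 20 Vcam1 UMIs of the group. Apoe, the lipid carrier, was at 12650 and 6419 CPM outside the group and 1304 and 3467 CPM inside it.

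Globin transcripts were more frequent in C1q-positive cells than in the other classes compared. At least 1 UMI of Hbb-bs, Hbb-bt, Hba-a1 or Hba-a2 was found in 27 of 82 remaining cells (32.9%, 22.9 to 44.2, thinned 16.6%) in FMT_young and in 7 of 35 (20%, 8.44 to 36.9, thinned 12%) in FMT_aged. T and NK cells without C1q had globin in 3.51% and 2.5% (thinned 1.06% and 0.804%), and monocytes in 3.09% and 1.77%. With at least 6 Fcgr4-group genes on both sides, globin was found in 20 of 58 (34.5%) and 5 of 16 (31.3%) C1q-positive cells and in 2 of 46 (4.35%) and 1 of 42 (2.38%) C1q-negative ones. Free RNA held 131 and 46.4 CPM of globin.

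Cells with much globin were rare in the series, and most in FMT_young were C1q-positive. Of 8 FMT_young cells past the erythroid limit 6 were C1q-positive, with 3.47% to 40.9% of their UMIs from the erythroid list and 10 to 46 C1q UMIs. Alas2, the first enzyme of haem synthesis in red cell precursors, was present in 5 of the 6 and Klf1, an erythroid master regulator, was at 0 UMIs in each. The cell with 3.47% also held 6 UMIs of Vcam1, 31 of Hmox1 and 8 of Spic. In FMT_aged 1 cell was past the erythroid limit and it was C1q-negative. All C1q-positive cells together held 4308 CPM of globin in FMT_young and 110 CPM in FMT_aged, but the remaining cells, from which the erythroid limit removes cells rich in globin, held 282 and 322 CPM (log2 -0.19, -0.71 to 0.36).

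C1q-positive cells were a larger share of FMT_young. They made up 1.46% of its called cells (95% interval 1.25 to 1.69) and 0.432% of those of FMT_aged (0.320 to 0.570), a log2 ratio of shares of 1.76 (1.29 to 2.24). Without another lineage the shares were 0.687% (0.547 to 0.852) and 0.308% (0.215 to 0.429), a log2 ratio of 1.16 (0.57 to 1.77). The remaining cells of the Fcgr4 group had a ratio of 1.74 (1.04 to 2.49), while those outside it were 5 and 13 (-1.45, -3.29 to 0.13). Cells with at least 6 Fcgr4-group genes but no C1q UMI were 46 and 42, a ratio of 0.06 (-0.58 to 0.70), and monocytes had one of 0.13 (0.01 to 0.25). The sort and the mixing set these shares, each was made for 1 library per group, and a difference between mixtures cannot be told apart from one between the groups of mice. The C1q genes, which chose the cells, summed to 7567 and 7484 CPM in the remaining cells, with medians of 25.5 and 15 C1q UMIs per cell, and 1 FMT_aged cell held 20.8% of that library's C1q UMIs there. Outside the Fcgr4 group they summed to 15528 and 7767 CPM.

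Gene levels were then compared between the libraries over 18 lists of genes with named roles. Among the 8626 genes with at least 20 UMIs in all C1q-positive cells of both libraries, 9.19% were more than 2-fold higher in FMT_young and 3.4% more than 2-fold lower, with a median log2 ratio of 0.06. Among the 3543 such genes of the remaining cells these shares were 9.96% and 5%, with a median of 0.09, and among the 3185 of the remaining Fcgr4-group cells 12% and 4.36%, with a median of 0.08. In either direction without a 2-fold limit, 4702 of the 8626 genes were higher in FMT_young and 3924 lower. In the remaining cells 1976 of the 3543 were higher and 1567 lower, and in the remaining Fcgr4-group cells 1792 of the 3185 and 1393. The counts in the lists are to be read against these shares and counts. Cells outside the Fcgr4 group were 5 of 82 remaining cells in FMT_young and 13 of 35 in FMT_aged. Values within the Fcgr4 group are therefore added where they differ from those of all remaining cells by over 1.5-fold or in direction.

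MHC class II genes, which present antigen peptides to helper T cells, were lower in FMT_young throughout. All 12 measured members were lower and 9 of them more than 2-fold, where the share of all genes was 3.4%, with a median log2 ratio of -1.70 (order-statistic interval over the genes -2.0 to -0.90). In the remaining cells all 10 were lower and 9 more than 2-fold, against 5% of all genes, with a median of -1.80, and in the remaining Fcgr4-group cells all 9 and 7 against 4.36%, with a median of -1.93. H2-Aa, the alpha chain of I-A (chromosome 17, 34282744 to 34287823), stood at 749 CPM in FMT_young and 3067 CPM in FMT_aged over all C1q-positive cells, and at 1613 and 8113 CPM in the remaining cells (log2 -2.33, -2.48 to -2.18). Cd74, the invariant chain that guides class II molecules to the endosome, was at 2910 and 13025 CPM in the remaining cells (-2.16), H2-Ab1 at 1208 and 6476 CPM (-2.42) and H2-Eb1 at 1381 and 6293 CPM (-2.19). H2-DMa, needed for peptide loading, had a ratio of -1.85, the costimulatory ligand gene Cd86 -1.75 and Ciita, the master regulator of the class II genes, -1.39 from 16 and 16 UMIs (-0.78 within the Fcgr4 group). In the 44 and 9 C1q-positive cells with Vcam1 the median of the list was -0.48.

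Per cell, both the share of cells with class II transcripts and their level differed. The sum of H2-Aa, H2-Ab1, H2-Eb1 and Cd74 per 10000 UMIs had a median of 9.01 in the 82 FMT_young remaining cells (quartiles 0 and 76.0, highest 730) and of 198 in the 35 FMT_aged ones (83.1 and 486, highest 905). The ranges overlapped, since each library had cells at 0. H2-Aa was detected in 45 of 82 cells (54.9%, thinned 40.5%) and in 34 of 35 (97.1%, thinned 90.3%), against 6.04% and 5.45% in T and NK cells without C1q. Within the Fcgr4 group the medians were 7.38 and 128, and outside it 170 and 424. Removing the cell with most class II UMIs from each library left a log2 ratio of the sum of -2.32 in the remaining cells.

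Other cells of the same libraries differed less in class II. The log2 ratio of the class II sum was -2.25 in the remaining C1q-positive cells (-2.32 to -2.18), and -1.38 in those with at least 6 Fcgr4-group genes (-1.49 to -1.27). It was -0.65 in the C1q-negative cells with as many of these genes (-0.75 to -0.55), -0.26 in monocytes, -0.28 in dendritic cells and -0.41 in free RNA. The dendritic cells were chosen in part by a minimum of UMIs of H2-Aa, H2-Ab1 and H2-Eb1 together. Cells low in class II were thus left out of that class in both libraries, which limits how far its ratio could move. In the C1q-positive cells with another lineage it was -0.58. These intervals cover counting error only, and no test of a difference between these classes was possible with 1 library per group.

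**Figure D4:**
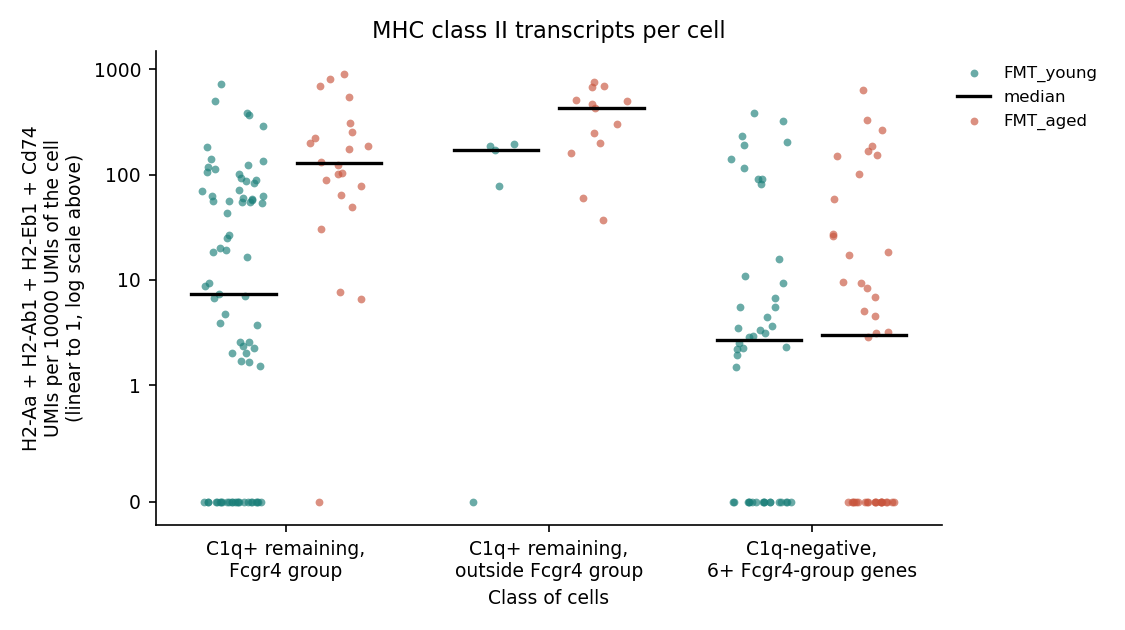
Each point is 1 cell, with the UMIs of H2-Aa, H2-Ab1, H2-Eb1 and Cd74 per 10000 UMIs of that cell on an axis that is linear to 1 and logarithmic above, and bars are medians. In the Fcgr4 group the medians of FMT_young (green) and FMT_aged (orange) are 7.38 and 128, outside it 170 and 424, and in the C1q-negative cells 2.66 and 2.99.

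Immediate early genes, a class that responds within minutes to stimuli and also to tissue dissociation, were higher in FMT_young. Of 33 measured members 28 were higher, 5 of them more than 2-fold against 9.19% of all genes, with a median log2 ratio of 0.63 (0.25 to 0.77). In the remaining cells 25 of 26 were higher, 8 of them more than 2-fold against 9.96% of all genes, with a median of 0.79. Within the Fcgr4 group all 25 were higher, with a median of 0.72. Fos, a subunit of the AP-1 transcription factor, stood at 2647 and 1476 CPM in all remaining cells (log2 0.84, 0.62 to 1.07). Jun, its partner, was at 1523 and 1009 CPM in them (0.59). Nr4a1, an orphan nuclear receptor, was at 324 and 110 CPM (1.56, 0.78 to 2.45, and 0.97 within the Fcgr4 group) and the coactivator gene Cited2 at 302 and 80.4 CPM (1.91).

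Heat shock chaperones were higher as well, in 13 of 16 members with a median of 0.36 and in 14 of 15 with a median of 0.72 in the remaining cells. Over all C1q-positive cells 1 of the 16 was more than 2-fold higher, against 9.19% of all genes, and in the remaining cells 3 of the 15, against 9.96%. Within the Fcgr4 group 12 of 15 were higher, with a median of 0.53. Dnaja1, a cochaperone of HSP70, stood at 512 and 161 CPM in the remaining cells (log2 1.67, 1.03 to 2.38) and Hsph1, a nucleotide exchange factor for HSP70, at 198 and 36.5 CPM (2.44). The stress-inducible Hspa1b was at 1985 and 1045 CPM (0.93), and Hspa1a at 1356 and 1301 CPM (0.06, -0.19 to 0.32, and -0.08 within the Fcgr4 group). Dissociation and sorting were done for 1 library per group, so their part in these values cannot be told apart from that of the groups.

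Genes of macrophage identity were lower in FMT_young in 16 of 19 members, with a median log2 ratio of -0.56, and in 14 of 17 with a median of -0.42 in the remaining cells. More than 2-fold lower were 4 of the 19, against 3.4% of all genes, and 5 of the 17, against 5%. In each set 1 member was more than 2-fold higher, against 9.19% and 9.96% of all genes. Lyz2 stood at 1113 and 3735 CPM in the remaining cells (-1.75, -1.94 to -1.56), at 1021 and 1963 CPM within the Fcgr4 group (-0.94) and at 812 and 901 CPM in cells with at least 6 Fcgr4-group genes (-0.15, -0.57 to 0.29). The mannose receptor gene Mrc1 was at 89.5 and 249 CPM in the remaining cells (-1.47) and Fcgr1, the high-affinity IgG receptor gene, at 44.7 and 205 CPM (-2.19). Aif1, an actin-binding protein gene, was at 316 and 680 CPM (-1.11) and Csf1r at 240 and 402 CPM (-0.74). Cd5l, a secreted inhibitor of cell death, went the other way with 33 and 2 UMIs (2.66, 0.69 to 5.76), both of the latter in 1 cell outside the Fcgr4 group. Adgre1 was level at 358 and 365 CPM (-0.03).

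Fc and scavenger receptor genes were split, with 6 of 13 higher over all C1q-positive cells (median -0.0043) and 5 of 13 in the remaining cells (median -0.30). Fcgr4 (chromosome 1, 171018920 to 171029761) stood at 2725 and 1133 CPM (log2 1.27, 1.02 to 1.52) and at 2830 and 1630 CPM within the Fcgr4 group (0.80, 0.54 to 1.06). Its signalling chain Fcer1g was at 6538 and 4407 CPM (0.57), and the C-type lectin genes Clec4a3 and Clec4a1 had ratios of 0.91 and 0.70. Fcgr3, a low-affinity IgG receptor gene, was at 64.3 and 175 CPM (-1.45). The receptors for IgG thus differed in opposite directions.

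Among genes for the uptake and breakdown of dead cells, 26 of 34 lysosomal genes were lower in FMT_young over all C1q-positive cells, with a median of -0.37. None of them was more than 2-fold lower, against 3.4% of all genes. In the remaining cells 14 of 32 were higher and 18 lower, 4 of the latter more than 2-fold against 5% of all genes, with a median of -0.21. Psap, the precursor of the saposins, stood at 4176 and 5738 CPM (log2 -0.46), the cholesterol transporter gene Npc2 at 397 and 994 CPM (-1.32) and the protease gene Ctsc at 263 and 548 CPM (-1.06). Acp5, a tartrate-resistant phosphatase, was at 939 and 534 CPM (0.82) and progranulin's gene Grn at 1054 and 629 CPM (0.75). Of the uptake genes 5 of 19 were higher over all C1q-positive cells with a median of -0.37, and 3 of 10 in the remaining cells with a median of -0.12. The inhibitory receptor gene Cd300a, which binds lipids of dying cells, was at 179 and 380 CPM (-1.09) and its relative Cd300lf at 212 and 95 CPM (1.16). Axl was at 235 and 292 CPM (-0.32, -0.88 to 0.26).

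Lipid genes were led by Apoe, at 738 and 1725 CPM in all C1q-positive cells (log2 -1.22, -1.35 to -1.10) and at 1778 and 4539 CPM in the remaining ones (-1.35, -1.51 to -1.19). It was also lower in FMT_young in the C1q-negative cells with at least 6 Fcgr4-group genes (1545 and 3030 CPM, -0.97), but level in monocytes (0.06). The phospholipid transfer protein gene Pltp was at 193 and 380 CPM (-0.98) and lipoprotein lipase, Lpl, at 506 and 336 CPM (0.59, but -0.06 within the Fcgr4 group). Over the list, 6 of 17 were higher in all C1q-positive cells with a median of -0.37, and 5 of 12 in the remaining cells with a median of -0.17.

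Haem and iron genes had no common direction. Over all C1q-positive cells 7 of 20 were higher with a median of -0.21, in the remaining cells 7 of 18 were higher with a median of -0.16, and within the Fcgr4 group 9 of 15 with a median of 0.25. Hmox1 stood at 344 and 351 CPM in the remaining cells (log2 -0.03), which combined 292 and 126 CPM in the Fcgr4 group with 1539 and 744 CPM outside it. The ferritin chain genes Fth1 (13619 and 10817 CPM, 0.33) and Ftl1 (6818 and 7214 CPM, -0.08) were the most abundant. Bach1, the haem-sensing repressor of Hmox1, was at 179 and 73.1 CPM (1.29, 0.32 to 2.42) and Nfe2l2, an activator of Hmox1, at 240 and 117 CPM (1.04). Biliverdin reductase, Blvrb, was at 78.3 and 249 CPM (-1.67) and Trf at 53.1 and 227 CPM (-2.09). Of 7 genes for contact with erythroblasts 0 were higher over all C1q-positive cells, with a median of -0.41, and 2 in the remaining cells, with a median of -0.03. Among them Vcam1 was at 64.3 and 417 CPM (-2.70), a value set in FMT_aged by 57 UMIs in 5 cells.

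Complement genes other than C1q were few. C3, the central complement component, was at 53.1 and 161 CPM in the remaining cells (log2 -1.60, but 0.19 within the Fcgr4 group, -1.41 to 2.22), properdin's gene Cfp at 193 and 322 CPM (-0.74, -1.30 to -0.16) and the anaphylatoxin receptor gene C3ar1 at 58.7 and 95 CPM (-0.69). With the C1q genes included, the median over 11 measured complement genes was -0.25 in all C1q-positive cells and over 10 in the remaining cells -0.05. Transcription factors known from macrophages were likewise level in the remaining cells, with 8 of 14 higher and a median of 0.09, against -0.25 over all C1q-positive cells. Among them Spi1, the gene of PU.1, was at 528 and 519 CPM (0.03) and Zeb2 at 1199 and 1001 CPM (0.26). Within the Fcgr4 group these ratios were -0.08 and -0.10.

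Interferon response genes were lower in FMT_young in part. Of the type I list 24 of 33 were lower over all C1q-positive cells with a median log2 ratio of -0.35, and 14 of 22 in the remaining cells with a median of -0.07. In the C1q-positive cells with Vcam1 its median was 0.08. Ifi27l2a, an interferon-induced gene, stood at 226 and 1148 CPM in the remaining cells (-2.34, -2.75 to -1.95), at 1008 and 1008 CPM in C1q-negative cells with at least 6 Fcgr4-group genes, and at 305 and 280 CPM in monocytes (0.12). Ifitm3, which restricts virus entry, was at 928 and 1506 CPM (-0.70) and Bst2, or tetherin, at 92.2 and 278 CPM (-1.59). Rsad2, the gene of viperin, had 41 and 3 UMIs (2.39, 0.74 to 4.72, and 1.80 within the Fcgr4 group). Of the interferon gamma list 19 of 23 were lower over all C1q-positive cells with a median of -0.41, and 15 of 17 in the remaining cells with a median of -0.33, among them the MHC class I genes H2-K1 at 2004 and 2675 CPM (-0.42) and H2-D1 at 1557 and 2185 CPM (-0.49).

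**Figure D5:**
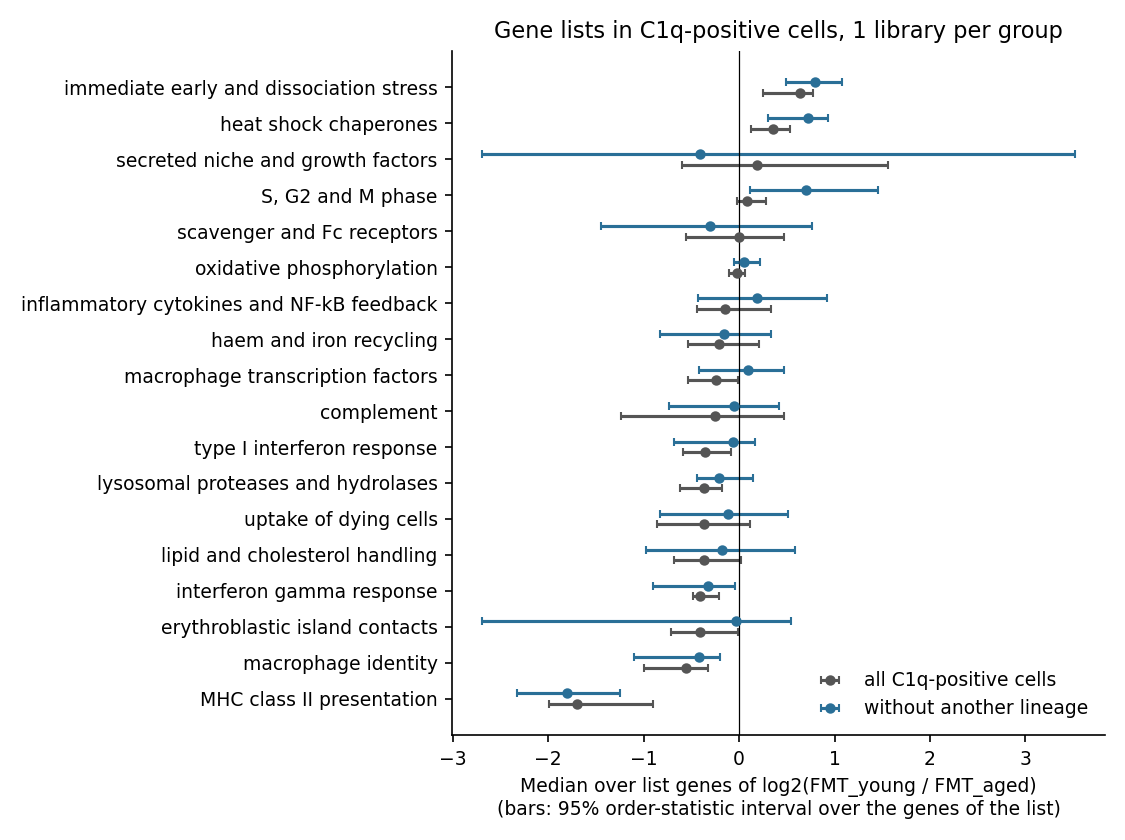
Points give the median log2 ratio of FMT_young over FMT_aged over the genes of each role list, in all C1q-positive cells (grey) and in those without another lineage (blue), and bars are 95% order-statistic intervals over the genes. MHC class II is the lowest at -1.70 and -1.80, and the immediate early genes are the highest in both sets at 0.63 and 0.79.

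Cytokine and NF-kB feedback genes had no common direction. Over all C1q-positive cells 14 of 33 were higher, with a median of -0.15. Of the 33, 2 were more than 2-fold higher, against 9.19% of all genes, and 7 more than 2-fold lower, against 3.4%. In the remaining cells 15 of 24 were higher, with a median of 0.18. The anti-inflammatory cytokine gene Il10 had 65 UMIs in 28 cells of FMT_young and 1 UMI in FMT_aged, and in the remaining cells 27 UMIs in 14 cells and 0. Against 3 UMIs, the floor used for a count of 0, the latter was 3.44-fold higher in FMT_young, a value that takes no account of the spread over cells. The C1q-negative cells with at least 6 Fcgr4-group genes held 8 and 0 UMIs of Il10. The chemokine gene Cxcl16 was at 55.9 and 190 CPM (-1.77, and -1.15 within the Fcgr4 group) and Ccl4 at 1311 and 1528 CPM (-0.22, and -0.87 within the Fcgr4 group). Of the genes for secreted niche and growth factors 10 of 17 were higher over all C1q-positive cells, with a median of 0.19. Of the 17, 6 were more than 2-fold higher, against 9.19% of all genes, and 3 more than 2-fold lower, against 3.4%. In the remaining cells 2 of 6 were higher, with a median of -0.41. Of the genes of S, G2 and M phase, 23 of 35 were higher over all C1q-positive cells with a median of 0.08, which became -0.13 in those with at least 10 C1q UMIs. In the remaining cells 13 of 14 were higher, with a median of 0.70. The proliferation marker gene Mki67 had 41 UMIs in 12 cells and 5 UMIs in 1 cell (1.65). Oxidative phosphorylation genes were level, with 16 of 36 higher and a median of -0.02 over all C1q-positive cells, and 21 of 36 and 0.06 in the remaining cells.

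Lipg, the gene of endothelial lipase, a secreted phospholipase of lipoproteins, was found among C1q-positive cells of FMT_young alone. It had 123 UMIs in 18 of the 82 FMT_young cells (22%, thinned 17.8%) and 0 UMIs in the 35 of FMT_aged, which makes it at least 15.7-fold higher against a floor of 3 UMIs. Over all C1q-positive cells it had 179 UMIs in 24 cells and 0 (at least 10.6-fold). It was at 0 UMIs in the C1q-negative cells with at least 6 Fcgr4-group genes of both libraries, and had 1 UMI in 1230 FMT_young monocytes. It had 89 UMIs in 12 of the 58 C1q-positive FMT_young cells with that many of these genes. In the remaining cells the glycerol kinase gene Gk (207 and 36.5 CPM, log2 2.5, and 1.91 within the Fcgr4 group), the phosphatase gene Dusp12 (224 and 21.9 CPM, 3.35), the kinase inhibitor gene Sh3bp5 (260 and 65.8 CPM, 1.98) and the cyclin gene Ccnd2 (881 and 300 CPM, 1.55) were also higher.

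Over all C1q-positive cells, the genes farthest from 0 included many of other lineages. Retnlg, a neutrophil gene, had 1310 and 0 UMIs, but 1 and 0 in the remaining cells. The light chain gene Igkv1-117 had 753 and 0 UMIs, but 4 and 0 in the remaining cells, and Igkv6-15 had 1 and 83 UMIs, but 0 and 0. Hbb-bs stood at 1986 and 48.1 CPM. Immunoglobulin genes made up 12.7% and 16.4% of the UMIs of all C1q-positive cells, and globin 0.431% and 0.0110%.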

How the data were processed

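The authors deposited raw UMI counts per gene and barcode, made with Cell Ranger 3.1.0 per the file headers, from 10x Chromium 3' v3 libraries per the labels' protocols and with the genome build mm10 per the submitters' processing notes. Each of the 2 libraries listed 6794880 barcodes and 31053 genes, and cells were called as the report describes. Cell barcodes and gene identifiers were used as deposited.

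The C1q-positive cells, their markers and the gene lists were chosen with earlier results of these data known. The Fcgr4 group, the limits on other lineages and the subset without another lineage were chosen after their values were seen. The limits were 5% of UMIs for the B and plasma cell list, 1% for the neutrophil and erythroid lists, 0.5% for plasmacytoid dendritic cells, 0.3% for T and NK cells, 0.2% for conventional dendritic cells and for basophils, mast cells and eosinophils, and 0.1% for stem and progenitor cells, with at least 3 UMIs each. Monocytes for comparison had at least 3 of Ly6c2, Ccr2, Csf1r, F13a1, Ms4a4c and Ms4a6c and no UMI of Kit, the C1q genes, Cd79a, Cd3e or Siglech. Doublets were kept and scored against simulated pairs of cells (2 per cell, 30 principal components), calling 0.8% per 1000 cells. Thinned shares are the expected shares with a UMI after drawing 1000 UMIs per cell. Each member cell has at least that many.

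Shares carry Clopper-Pearson, CPM exact Poisson and ratios exact conditional binomial 95% intervals, and list medians order-statistic intervals, over genes whose UMIs in the compared cells summed to 20 or more across the libraries. The interval code was checked on simulated data. Named genes were the 5 markers, the 3 highest and the 2 farthest per direction of each list, the 10 farthest per direction of all genes, and the 15 leading genes over monocytes. Other list members named were chosen after their values were seen. Alternatives changed the C1q, UMI, mitochondrial and gene limits, doublets, scaling and free RNA. Gene positions are from GENCODE vM21 (570 of 570 named genes found). Python 3.11.15, numpy 2.4.6, scipy 1.17.1, scikit-learn 1.9.0 and matplotlib 3.10.9 were used.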

Additional observations from a re-analysis of the deposited data

Results flagged for a closer look

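Barcodes left out for a mitochondrial share above 10% also held cells that met the C1q rule. In FMT_young 10 of 1704 such barcodes met it (0.587%, 95% Clopper-Pearson interval 0.282 to 1.08) and in FMT_aged 11 of 2271 (0.484%, 0.242 to 0.865). A count of 0 would have allowed shares of up to 0.176% and 0.132%. The excluded C1q-positive barcodes had medians of 7262 and 4110 UMIs. Among called cells the shares were 1.46% and 0.432%, so the excluded barcodes differed less between the libraries than the called cells did, a difference that was not tested.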

How the results depend on the processing

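Over 10 alternatives the log2 ratio of the C1q-positive share (1.76) lay between 1.16, without another lineage, and 2.22, in cells with Vcam1, and kept its sign. No paired analysis was possible because each group was 1 library and the labels carry no replicate numbers. The list medians that left their interval were as follows, and the cause was not tested. A change of sign is called a reversal only where the interval over all C1q-positive cells left out 0. Without another lineage, the transcription factors were at 0.090 (reversed from -0.25), type I interferon at -0.065, immediate early genes at 0.79, heat shock at 0.72 and S, G2 and M phase genes at 0.70. In the Fcgr4 group alone, haem and iron genes were at 0.25 (from -0.21), transcription factors at -0.0021, S, G2 and M at 0.40 and oxidative phosphorylation at 0.14. Without called doublets, macrophage identity was at -0.28, lysosomal genes at -0.17, lipid genes at 0.13 (from -0.37), transcription factors at -0.0055, S, G2 and M at 1.23 and oxidative phosphorylation at 0.13. With Vcam1-positive cells only, transcription factors were at -0.0067, MHC class II at -0.48, type I interferon at 0.081 (reversed from -0.35), interferon gamma at -0.17, cytokines at 0.57 (from -0.15), niche factors at -0.86 (from 0.19), S, G2 and M at 0.83 and oxidative phosphorylation at 0.19. Without cells holding 3 UMIs of lymphoid or progenitor markers, MHC class II was at -2.16, interferon gamma at -0.63 and S, G2 and M at 0.55. Without the top cell of each gene, which removes more of the smaller library, lysosomal genes were at -0.17, transcription factors at 0.030 (reversed), type I interferon at -0.0022, interferon gamma at -0.14, immediate early at 0.79, heat shock at 0.64, S, G2 and M at 1.24 and oxidative phosphorylation at 0.20. S, G2 and M phase genes were at -0.13 (from 0.08) with at least 10 C1q UMIs and at 0.53 as a mean over cells. Of single genes, Hmox1 (-0.47) ranged from -1.44 in cells with Vcam1 to 1.21 in the Fcgr4 group alone, Vcam1 (-0.68) from -2.70 to -0.31, Fcgr4 (0.82) from 0.58 to 3.01, H2-Aa (-2.03) from -2.33 to -0.37, Cd74 (-1.74) from -2.16 to -0.48 and Lyz2 (-0.94) from -1.75 to -0.13. MHC class II stayed below 0 and immediate early and heat shock genes above 0 under all 17 alternatives. Scaling by the median ratio moved all genes by 0.0096 on the log2 scale. The 49 FMT_aged cells limit genes of few UMIs.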
